A study of Homo sapiens with 6 samples.

Results

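The genes described here encode secreted signals of the VEGF, angiopoietin and endothelin families and the receptors that read the VEGF signals. They were taken by gene name, and 9 of the 10 names (VEGFA, VEGFB, VEGFC, PGF, FLT1, NRP1, NRP2, ANGPT1 and EDN1) matched a row among the 20745 genes of the deposited table. KDR matched none, so no level is given for it. The cells were AB 8/13, a conditionally immortalized human podocyte line that divides at a permissive temperature and was differentiated at a restrictive one. There were 3 vehicle cultures and 3 cultures exposed to 1 µM levamisole, an anthelminthic drug also given in nephrotic syndrome, both for 24 h and each at a different passage. By the treatment protocol in the sample labels both groups were kept without serum for these 24 h, though only the vehicle titles say so, whereas the methods of the study have vehicle cells in complete medium with serum, and the titles of the levamisole cultures also carry the word control. The line was grown alone, without the glomerular endothelial cells to which podocytes send these signals in the kidney.

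The values are base means, that is, read counts scaled for library size and averaged by the authors over every library of their fit, vehicle and levamisole together. The remaining measurements in the table are the authors' own comparison of the groups and were not used. The question of how levamisole moved these genes is therefore not answered here, and what follows is their level in the cultures as a whole. Libraries beyond those of this series may be included in the authors' fit. A pooled mean carries no replicate error, and the depth per library is unknown, so it cannot be said whether genes next to each other in level differ beyond the spread between cultures. In such bulk RNA, fewer cells that express a gene and less RNA per cell cannot be told apart.

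As background, podocytes in the glomerulus are a main source of VEGFA, which crosses the basement membrane to receptors on the endothelium. VEGFA binds the receptor tyrosine kinases FLT1 and KDR, VEGFB and PGF bind FLT1, and VEGFC binds FLT4 and, once processed, KDR. The neuropilins NRP1 and NRP2 have no kinase of their own and present VEGF ligands to these receptors, while also serving class 3 semaphorins. ANGPT1 acts on the endothelial receptor TEK, and EDN1 encodes the precursor of a vasoconstrictor peptide that acts on EDNRA and EDNRB.

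To show the regulatory sequence at abundant and at scarce genes among these, 250 bases before the start nearest to that of the canonical transcript were taken from RefSeq (GRCh38.p14) for EDN1 and VEGFC, which were nearly equal and high, for FLT1, which was at the lower edge of the table, and for KDR, the other VEGFA receptor kinase, which has no level here. An entry was found for 7 of the 10 genes. Those for VEGFA, NRP1 and ANGPT1 were missing. Sequences run 5′ to 3′ on the strand of the gene, and capitals mark ACGTG (the core of the hypoxia response element), TATAAA (the TATA box) and GGGCGG (the GC box), each searched on both strands.
EDN1, chr6:12290111-12290360, plus strand: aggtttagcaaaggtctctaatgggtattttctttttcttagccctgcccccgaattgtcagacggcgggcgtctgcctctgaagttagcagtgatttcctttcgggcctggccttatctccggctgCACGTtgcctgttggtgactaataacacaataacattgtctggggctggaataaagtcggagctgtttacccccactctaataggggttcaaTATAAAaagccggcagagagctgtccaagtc
VEGFC, chr4:176792923-176793172, minus strand: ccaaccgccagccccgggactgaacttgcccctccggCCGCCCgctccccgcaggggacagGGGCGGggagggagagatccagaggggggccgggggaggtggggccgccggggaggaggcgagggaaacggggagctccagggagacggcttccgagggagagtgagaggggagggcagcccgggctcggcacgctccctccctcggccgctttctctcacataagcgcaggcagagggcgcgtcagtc
FLT1, chr13:28495129-28495378, minus strand: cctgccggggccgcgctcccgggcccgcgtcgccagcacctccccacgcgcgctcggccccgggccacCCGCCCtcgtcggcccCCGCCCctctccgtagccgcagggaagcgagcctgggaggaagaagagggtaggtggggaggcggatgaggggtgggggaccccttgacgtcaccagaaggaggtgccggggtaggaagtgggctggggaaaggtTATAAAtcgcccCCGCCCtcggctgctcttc
KDR, chr4:55125596-55125845, minus strand: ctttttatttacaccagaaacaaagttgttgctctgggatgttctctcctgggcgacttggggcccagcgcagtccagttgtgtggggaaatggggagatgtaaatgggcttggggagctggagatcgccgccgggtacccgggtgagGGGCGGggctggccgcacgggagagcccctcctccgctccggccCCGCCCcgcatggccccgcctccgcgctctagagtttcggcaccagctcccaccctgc

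The stretch of EDN1 held 1 hypoxia response core, which begins 123 bases before the start and is read as CACGT on the strand shown, and 1 TATA box beginning 31 bases before it. RefSeq lists other starts of EDN1 upstream, of which the one 2342 bases away held 2 hypoxia response cores, 1 GC box and no TATA box, and the one 347 bases away held none of the motifs. ACGTG was found in 18.5% of the 35116 stretches of the same length in the RefSeq table, and TATAAA in 10.7%. FLT1 held a TATA box at the same distance, 31 bases, together with 3 GC boxes. That distance is from the RefSeq start, which is also that of the canonical transcript, while another annotated transcript of FLT1 begins within the stretch. VEGFC and KDR held 2 GC boxes each and neither of the other motifs, and GGGCGG was present in 42.6% of all stretches. TGANTCA, the AP-1 motif, was also searched and was found in 6.57% of all stretches and in none of these 4. Only exact matches were counted, so near matches such as TGACTAA in the stretch of EDN1 were not. By base composition the 4 differed, with 9 CpG dinucleotides and 49.2% G and C in EDN1, against 22 and 74.0% in VEGFC, 25 and 73.2% in FLT1, and 17 and 65.2% in KDR. The median over all stretches was 11 CpG dinucleotides and 58% G and C. EDN1 and VEGFC thus had nearly equal base means but differed in composition. A match is a run of letters only, and no factor was measured at these sites.

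VEGFA was the most abundant of these genes by base mean. Its base mean was 1407, place 489 from the top, with 97.6% of all genes lower. The gene (ENSG00000112715) lies on chromosome 6 of GRCh38 from 43770184 to 43786487, on the plus strand. VEGFC (ENSG00000150630, chromosome 4, 176683538 to 176792922, minus strand), a ligand best known for lymphatic vessel growth, had a base mean of 657 and place 1249. VEGFB (ENSG00000173511, chromosome 11, 64234584 to 64239264, plus strand), a ligand of FLT1, stood much lower with a base mean of 49.2, and 60.0% of genes were lower. PGF (ENSG00000119630, chromosome 14, 74941834 to 74955626, minus strand), the placental growth factor, had a base mean of 6.72, and 38.6% of genes were lower. The VEGF ligands thus spread from near the top of the table to below its median, which was 21.8.

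Levels of different genes are given both as base means and per length of transcript. In CEL-seq reads come mostly from the 3′ end, so a long transcript need not give more reads, and division by length can then understate long transcripts such as the longest of VEGFA. On the base mean scale VEGFA was 2.14 times VEGFC. Per kb of the longest annotated transcript, which is 12.17 kb for VEGFA and 2.26 kb for VEGFC, the ratio was 0.397. Per kb of the median transcript, which is 1.037 kb for VEGFA and 1.509 kb for VEGFC, it was 3.11. VEGFA was therefore above VEGFC by base mean and per kb of the median transcript, and below it only per kb of the longest transcript. The share of VEGFA in the summed levels of the 4 VEGF ligands was 66.4% by base mean and 26.5% per kb of the longest transcript, and that of VEGFC was 31.0% and 66.8%. VEGFB contributed 2.32% and 6.26%, and PGF 0.317% and 0.434%. On each of the 3 scales VEGFA and VEGFC were above VEGFB, by at least 4.24 and 10.5 times, and VEGFB was above PGF by at least 7.33 times.

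EDN1, the endothelin precursor (ENSG00000078401, chromosome 6, 12290361 to 12297194, plus strand), had a base mean of 657 and place 1250, next to VEGFC in the list of all genes. Per kb of the longest transcript EDN1 was the highest of the 9 genes, at 323, followed by VEGFC at 291 and VEGFA at 116. Per kb of the median transcript EDN1 also had 323, and VEGFA, VEGFC and NRP2 were then above it at 1356, 436 and 391. The median was 1.037 kb over 26 annotated transcripts for VEGFA and 1.072 kb over 17 for NRP2. EDN1 has 1 transcript, of 2.035 kb. Division by such short medians can overstate VEGFA and NRP2. ANGPT1, the agonist of TEK (ENSG00000154188, chromosome 8, 107249482 to 107498055, minus strand), had a base mean of 1.05, with 18.6% of genes lower.

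Of the receptors, both neuropilins were abundant. NRP2 (ENSG00000118257, chromosome 2, 205681990 to 205798133, plus strand) had a base mean of 419 and NRP1 (ENSG00000099250, chromosome 10, 33177492 to 33336262, minus strand) one of 293, with 90.5% and 86.5% of genes lower. NRP2 was above NRP1 on every scale, by 1.43 times in base mean, 1.26 times per kb of the longest and 3.35 times per kb of the median transcript. FLT1 (ENSG00000102755, chromosome 13, 28300346 to 28495145, minus strand) had a base mean of 0.199, and only 2 of the 20745 genes were lower. A base mean this far under 1 corresponds to less than 1 normalized read per library on average, so the level of FLT1 is not measured with any precision. KDR lies on chromosome 4 from 55078481 to 55125595, on the minus strand.

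**Figure D1:**
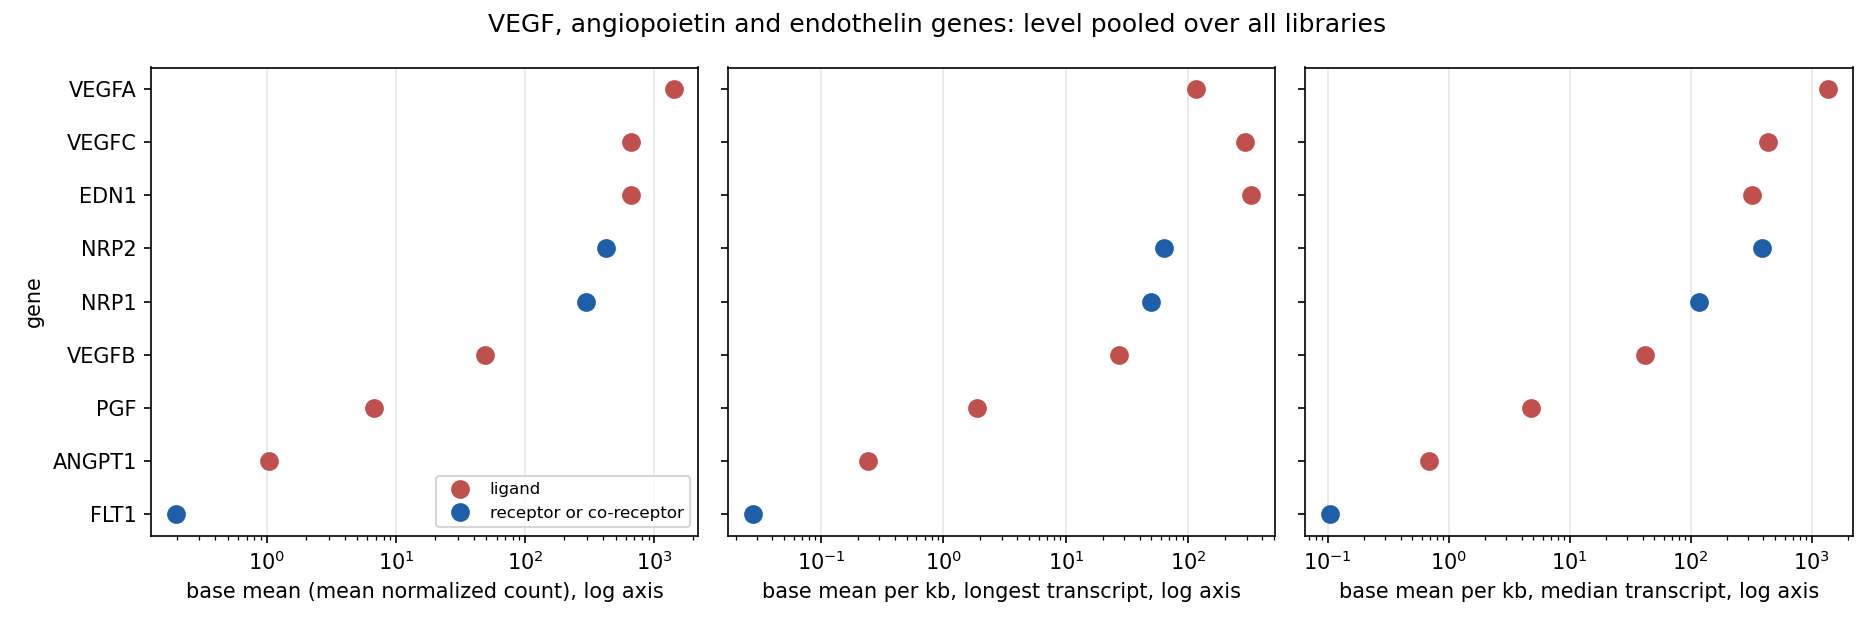
Level of the 9 genes with a row (dots, 1 pooled value per gene and no error bars since none can be had) as base mean, per kb of the longest transcript and per kb of the median transcript, each on a log axis, with ligands in red and receptors or co-receptors in blue. VEGFA, VEGFC, EDN1, NRP2 and NRP1 are the 5 highest in all 3 panels, while the order among the upper ones changes, and VEGFB, PGF, ANGPT1 and FLT1 follow in that order in each.

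The order below the 4 highest genes did not depend on the scale. NRP1, VEGFB, PGF, ANGPT1 and FLT1 followed each other in base mean and in both values per kb. Of the 8 neighbouring pairs in the order by base mean, 6 kept their order per kb of the longest transcript and 7 per kb of the median one. The pairs that turned around were VEGFA with VEGFC and VEGFC with EDN1 for the longest transcript, and EDN1 with NRP2 for the median. CEL-seq reads fall near the 3′ end of the transcript, and for none of the 10 genes did the last 500 exonic bases overlap a neighbour's exons on that strand (GENCODE 44).

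Set against all genes, the 9 ran from the lower edge of the table to its upper tail. Of them, 6 were above the median base mean and 3 (PGF, ANGPT1 and FLT1) below it, and 4 (VEGFA, VEGFC, EDN1 and NRP2) were above 401, the level that 10% of genes exceed. Base means of at least 5 were found for 7 of the 9, and for 64.3% of all genes. The median of the 9 was 293, that of NRP1. Since the genes were chosen by name and with earlier results known, nothing particular to the group is drawn from these counts.

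**Figure D2:**
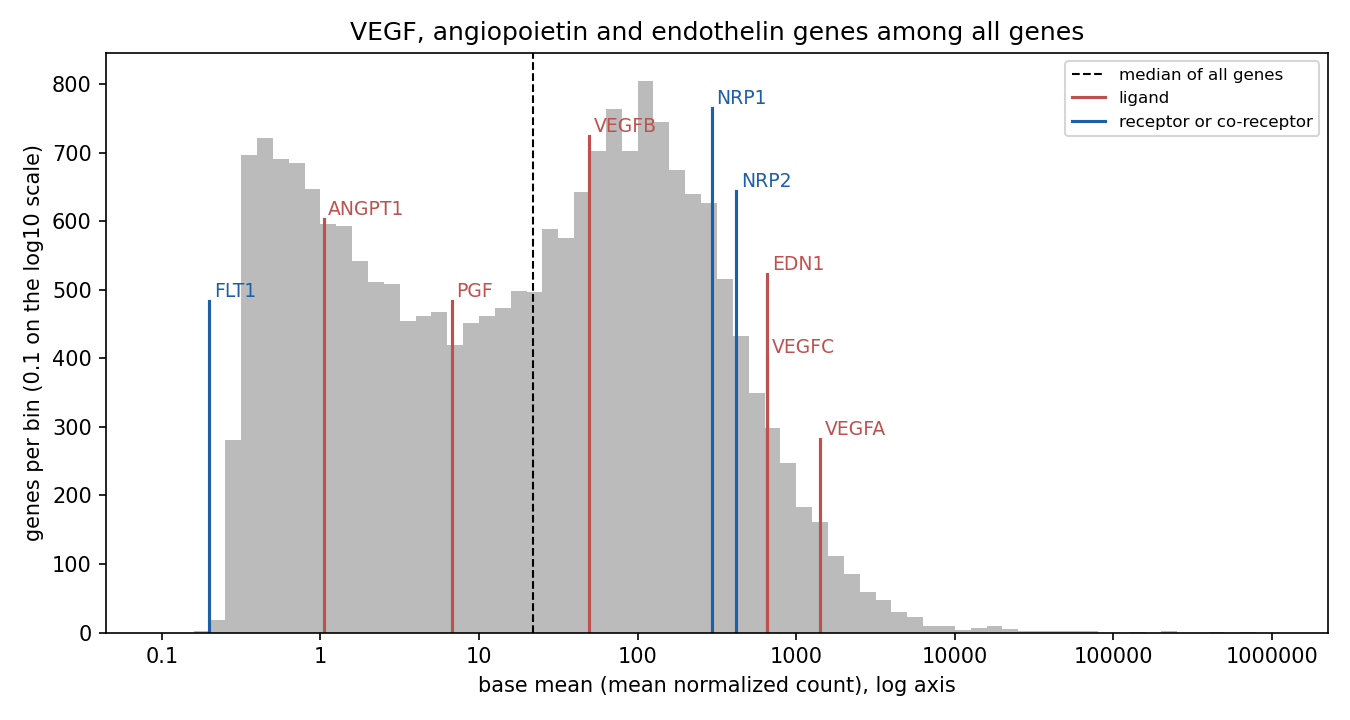
Number of genes (grey bars, bins of 0.1 on the log10 scale) by base mean on a log axis, with a line at each of the 9 genes (ligands red, receptors or co-receptors blue; line height has no meaning) and a dashed line at the median of all genes, 21.8. FLT1 lies at the left edge at 0.199, ANGPT1 at 1.05 within the low peak, and VEGFA at 1407 in the right tail.

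Other genes of the same pathways were read from lists, where 35 of 51 had a base mean of at least 5, 12 had a lower one and 4 matched no row. Of all genes with a row, 64.3% had a base mean of at least 5. Counts at that minimum, here and for each list below, thus say little about the pathways by themselves. Of the ligands related to VEGF, 4 of 5 reached a base mean of 5. PDGFC and PDGFB, growth factors for mesenchymal cells, had the highest, 616 and 357, while VEGFD matched no row. None of the 3 listed receptor kinases did so. FLT4, the VEGFC receptor, had a base mean of 3.56 and PDGFRB, the receptor for PDGFB, one of 4.14, and PDGFRA matched no row. The ligands VEGFC and PDGFB thus stood beside receptor kinases, FLT4 and PDGFRB, with base means under 5, while KDR and PDGFRA have no level here.

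For VEGFC, the genes that process it were also present. ADAMTS3, the protease that cleaves the VEGFC precursor, had a base mean of 326, and CCBE1, the secreted cofactor of that cleavage, had one of 169. Of the 5 genes for processing and matrix storage, 4 had a base mean of at least 5. The exception was PCSK5, a proprotein convertase, at 4.84.

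The class 3 semaphorins and plexins, which share the neuropilins with VEGF, had 9 of 11 genes at a base mean of at least 5. SEMA3C, a semaphorin that binds both neuropilins, was the highest at 575, and PLXNA3, a plexin that passes semaphorin signals into the cell, was next at 198. The values of SEMA3D and PLXNA4 were 3.12 and 1.78. Per kb of the longest transcript SEMA3C had 118, against 62.97 for NRP2 and 49.9 for NRP1.

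Of the other angiopoietin genes, 1 of 6 reached a base mean of 5. It was PTPRB, a phosphatase known to act on TEK, with a base mean of 73.5. TEK itself had 0.690, its relative TIE1 had 1.70, and the ligands ANGPT2 and ANGPT4 had 1.08 and 1.95. SVEP1, a matrix protein linked to TIE1, had 0.336. ANGPT1 and its receptor were thus both low, with 18.6% and 12.9% of genes below them.

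The endothelin genes differed from that. EDNRA, the receptor through which EDN1 contracts smooth muscle, had a base mean of 291, with 86.4% of genes lower, while EDNRB, the other receptor, had 0.499. Per kb of the longest transcript EDNRA had 70.0, EDNRB 0.112 and EDN1 323. ECE1, which cleaves the precursor to the active peptide, had a base mean of 119, and MME, an endopeptidase that degrades such peptides, had 116. Of the 7 listed genes, 4 were at 5 or more, and EDN3 and ECE2 matched no row. The endothelin ligand, its converting enzyme and 1 of its receptors were therefore all at a base mean of at least 5. For VEGFA, VEGFC and ANGPT1 no receptor kinase with a row reached 5, though FLT4, at 3.56, would pass a minimum of 1. The co-receptors NRP2 and NRP1, at 419 and 293, were well above 5.

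Among regulators of VEGFA through oxygen, 7 of 8 had a base mean of at least 5. EPAS1, a hypoxia-inducible factor, had the highest base mean, 4424, and VHL, which marks these factors for degradation, had 968. HIF1A had 781. EGLN2, a prolyl hydroxylase, had 1.10. Whether its exons overlap a neighbour's on that strand was not checked, nor was this done for the other listed genes. All 6 listed angiogenesis inhibitors were at 5 or more, as were 64.3% of all genes with a row. THBS1, a secreted matrix protein that restrains vessel growth, had a base mean of 11062, with 99.8% of genes lower. COL18A1, the source of endostatin, had 187, and SERPINF1 had 128. THBS2, VASH1 and COL4A3 had 19.2, 13.5 and 10.1, below the median of all genes, 21.8.

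**Figure D3:**
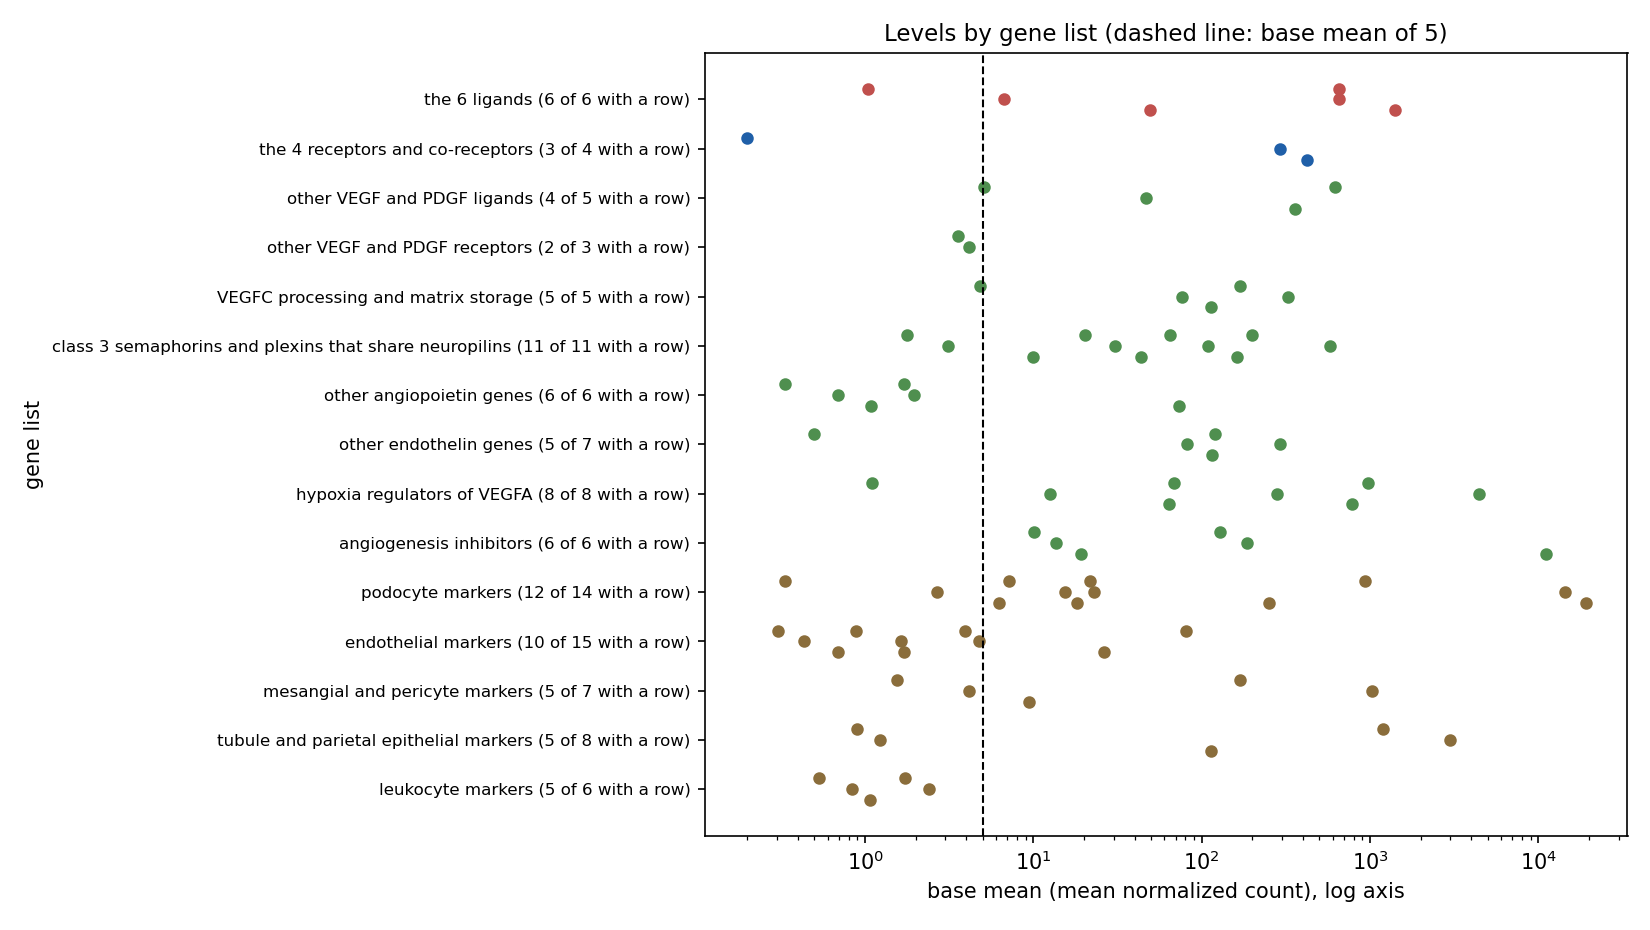
Base mean (log axis) of each listed gene with a row, 1 dot per gene, by list (the genes of the report red and blue, other pathway genes green, markers brown, with dots shifted up or down only for legibility), and a dashed line at a base mean of 5. The 2 VEGF and PDGF receptors lie left of the line, as do 5 of 6 angiopoietin genes, while all 6 angiogenesis inhibitors lie right of it.

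Of 14 podocyte markers, 10 had a base mean of at least 5, as did 64.3% of all genes with a row, and 4 had one of at least 50. The highest, VIM at 19062 and ACTN4 at 14321, are cytoskeletal genes that many cells use. CD2AP and KIRREL1, whose products belong to the slit diaphragm complex and its anchor, had 929 and 253, with 96.0% and 84.5% of genes lower. NPHS1, a slit diaphragm gene that helps define the podocyte, matched no row, nor did LMX1B. SYNPO had 22.8, PLA2R1 21.8, NES 18.1, PODXL 15.3, TCF21 7.20 and WT1 6.21. Of all genes, 50.5% were lower than SYNPO, the highest of these, and 37.8% were lower than WT1, the lowest. CLIC5 and PTPRO had 2.67 and 0.333. Of 15 endothelial markers, which include KDR, TEK and TIE1 themselves, 2 reached a base mean of 5, EHD3 at 80.1 and SOX17 at 26.1. The defining markers CDH5 and VWF had 0.306 and 0.434, PECAM1, EMCN, PLVAP and CLDN5 matched no row, and ESAM, ROBO4, ERG and SOX18 had 3.94, 1.63, 4.75 and 0.888. Of 6 leukocyte markers, 0 were at 5 or more, the highest being CD14 at 2.40 and CSF1R at 1.73. PTPRC, CD68 and CD79A had 0.832, 1.06 and 0.529, and CD3E matched no row. Of 8 tubule and parietal epithelial markers, 3 were at 5 or more, and CLDN1 and PAX8 were the highest at 2965 and 1198. CUBN and SLC34A1 had 1.22 and 0.900, and LRP2, UMOD and CDH16 matched no row. Of 7 mesangial and pericyte markers, 3 were at 5 or more, the highest being ACTA2 at 1021 and RGS5 at 169, the latter in the row of its own identifier since the name stands on another row as well. GATA3 had 1.54, PDGFRB is given above, and ITGA8 and DES matched no row. The cultures were of a single line grown alone, and whether any other cell type was present was not tested.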

How the data were processed

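The study compared 3 vehicle with 3 levamisole cultures by CEL-seq. Per the labels' processing notes, Trim Galore 0.4.5, STAR 2.7.5a, HTSeq 0.11.0 and DESeq2 1.22.0 were used, on GRCh38. The methods name Ensembl 95, and BWA for a separate mapping. The authors deposited 1 table, whose base mean is a signal (the normalized count, averaged over all libraries they fitted). Its 5 columns of log2 fold change, standard error, statistic and p-values are the authors' comparison and were left out. Depth per library is unknown: among the 2500 lowest base means the commonest difference recurred 3 times, so the worth of 1 read could not be read, and libraries beyond the 6 may be included.

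The genes and lists were chosen with earlier results of these data known. All 10 genes were named and, of each list, the 2 highest and those under a base mean of 5 or with no row. HIF1A, MME, WT1, SYNPO, CD2AP, KIRREL1, PODXL, TCF21, PLA2R1, NES, SERPINF1, THBS2, VASH1 and COL4A3 were added after their values were seen. Levels were ranked over all genes and divided by transcript lengths of GENCODE 44. Some listed marker genes are not reported here. No test was run. Python 3.11.15 with pandas 2.3.3, NumPy 2.4.6 and matplotlib 3.10.9 was used, and the ranking and motif search were tested on simulated data.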

Additional observations from a re-analysis of the deposited data

How the results depend on the processing

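No paired analysis was possible because the table holds 1 pooled value per gene and no value per culture. For the same reason no library was left out, no reads per library were recovered and no tolerance for such a match was varied. Identity between proteins was not run, for want of protein sequences here. The 9 genes together took 0.0550% of the summed base means, and 0.0844% without the 22 mitochondrial genes, which took 34.8%. Of 14 podocyte markers, 10 reached a base mean of 5 and 4 reached one of 50. The number of genes above the median, 6 of 9, was 5 when the ranking was limited to base means from 5 up, to those from 10 up, or to protein-coding genes, because VEGFB then fell from 60.0% of genes below it to 37.7%, 30.8% and 44.2%. With a minimum of 5, 7 of these genes and 35 other pathway genes counted as readable, against 8 and 44 with a minimum of 1, 6 and 33 with 10, and 5 and 25 with 50. Endothelial markers went from 2 to 6, 2 and 1.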
